A study of Homo sapiens with 24 samples.

Results

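The S100-fused type family comprises 7 genes that lie together on chromosome 1 in the order TCHHL1, TCHH, RPTN, HRNR, FLG, FLG2 and CRNN. Every probe of the Illumina bead array that the platform annotation assigns to 1 of these symbols was taken, which gave 8 of 47304 probes, with a pair for FLG2 and a single probe for each other gene. All 8 were detected, meaning a detection p under 0.01 against the negative control beads, on at least 4 of the 24 arrays, and the 7 genes were among 12149 features tested. The genes were chosen by name and not by a rule on a measured value, but with earlier results of these data known.

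The RNA was from N/TERT1, human keratinocytes immortalized and grown in culture as a cell line, in 6 groups of 4 arrays. Undifferentiated cells were kept subconfluent in 0.3 mM calcium, and every other group was grown to high confluence, switched to 1.2 mM calcium and harvested at day 6. From day 3 these cells received no compound (called day 6 here), 50 µM EGBG, 1 mM spermidine/spermine (SDSM), EGBG plus SDSM, or 1 mM putrescine (PUT). EGBG inhibits AMD1, the decarboxylase whose product carries the aminopropyl groups added to putrescine to make spermidine and spermine. The labels do not say whether 1 mM applies to each polyamine or to their mixture. All groups share the 1 cell line, and calcium, confluence and days in culture change together between undifferentiated and day 6 cells, so they cannot be told apart.

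S100-fused type proteins begin with a calcium-binding S100 domain that runs into a long series of repeats, and they are made late in the differentiation of squamous epithelia. Profilaggrin, the product of FLG, is stored in the keratohyalin granules of the granular layer and is cut into filaggrin, which bundles keratin filaments and is later broken down to amino acids that hold water in the cornified layer. Loss-of-function variants of FLG cause ichthyosis vulgaris and predispose to atopic dermatitis. FLG2 and HRNR encode filaggrin-2 and hornerin, the relatives closest to profilaggrin, RPTN encodes repetin, a cornified envelope precursor, CRNN encodes cornulin, abundant in oesophageal epithelium, and TCHH encodes trichohyalin of the hair inner root sheath. TCHHL1 is named for its likeness to trichohyalin.

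The stretch just upstream of each gene start is shown because the start regions of these neighbours can then be compared letter by letter. Sequences are from RefSeq, build GRCh38.p14, minus strand, 5′ to 3′, and each is the 130 bases that end just before the start. All 7 genes were found in the RefSeq table. Capitals mark TGANTCA, the AP-1 consensus with any base in the middle, which reads as the same pattern on both strands.
FLG, chr1:152325240-152325369: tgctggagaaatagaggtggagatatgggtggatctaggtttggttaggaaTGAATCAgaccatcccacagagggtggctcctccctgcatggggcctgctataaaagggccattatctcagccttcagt
FLG2, chr1:152360007-152360136: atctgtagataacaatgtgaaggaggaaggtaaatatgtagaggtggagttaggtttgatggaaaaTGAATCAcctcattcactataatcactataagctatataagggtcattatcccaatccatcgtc
HRNR, chr1:152224194-152224323: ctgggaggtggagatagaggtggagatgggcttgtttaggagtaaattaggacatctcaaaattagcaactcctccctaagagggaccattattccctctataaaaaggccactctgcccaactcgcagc
RPTN, chr1:152159229-152159358: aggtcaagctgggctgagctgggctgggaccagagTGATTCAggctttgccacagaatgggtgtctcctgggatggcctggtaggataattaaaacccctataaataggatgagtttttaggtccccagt
CRNN, chr1:152414264-152414393: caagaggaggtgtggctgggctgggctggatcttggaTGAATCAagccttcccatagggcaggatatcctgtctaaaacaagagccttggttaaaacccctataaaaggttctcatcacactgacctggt
TCHH, chr1:152115445-152115574: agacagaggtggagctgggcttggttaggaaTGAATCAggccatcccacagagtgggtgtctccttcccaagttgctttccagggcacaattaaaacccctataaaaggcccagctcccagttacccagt
TCHHL1, chr1:152089065-152089194: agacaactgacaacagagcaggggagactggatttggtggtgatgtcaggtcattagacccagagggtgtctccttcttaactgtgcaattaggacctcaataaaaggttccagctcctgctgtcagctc

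TGANTCA was present within 250 bases before the start of 6 of the 7 genes, against 6.57% of 35116 RefSeq promoters searched over the same length. In all 6 it was the version TGAATCA, on the other strand in RPTN, a version present in 2.53% of promoters. The version TGACTCA was present in 0 of the 7 and in 4.2% of promoters. The match began 79 bases before the start of FLG, 64 before FLG2, 95 before RPTN, 93 before CRNN and 99 before TCHH. In TCHHL1 it began 215 bases before the start, outside the stretch shown, and these letters were not in the 250 bases before HRNR. TATAAA, which does not overlap the first pattern, was searched on both strands and stood 31 to 25 bases before the start of FLG, HRNR, RPTN, CRNN and TCHH, and in 10.7% of promoters. The patterns were chosen after the sequences had been read, so the counts are descriptions, and a match is not evidence of binding.

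**Figure D1:**
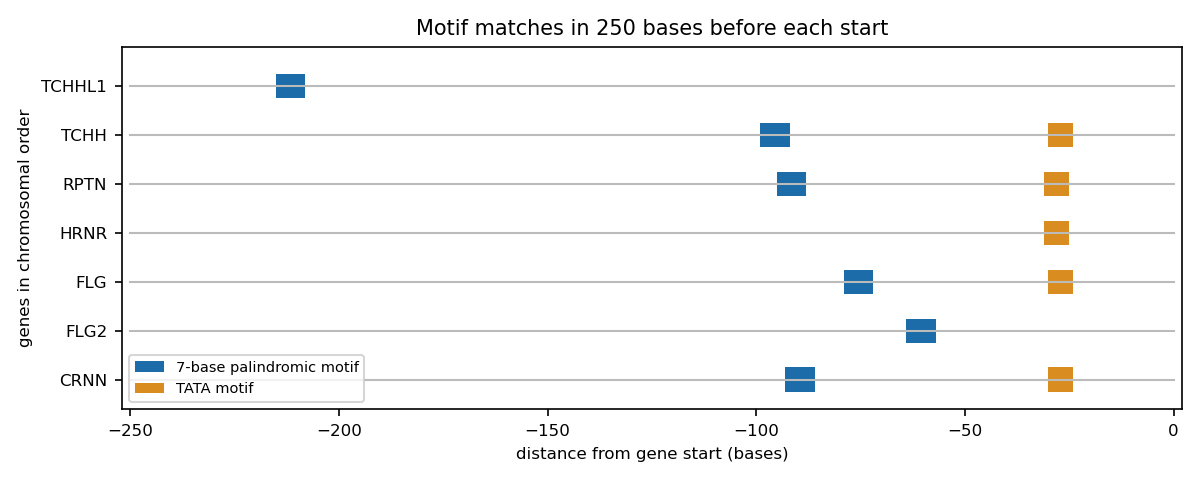
Positions of motif matches in the 250 bases before the start of each gene, with genes in chromosomal order and the horizontal axis in bases from the start. Blue blocks mark the 7-base motif, found in 6 of 7 genes and between 99 and 58 bases before the start in 5 of them, and orange blocks mark TATAAA, found in 5 genes.

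Each array detected 10348 to 13089 probes, with a mean background-subtracted intensity of 345.2 to 637.1, and arrays of 1 group correlated at r of at least 0.9649 across features, which are not independent replicates. Keratinocyte markers were present, with 8 of 8 measured genes detected on all 4 arrays in each differentiated group, and 5 of 8, including KRT5 and KRT14, in undifferentiated cells. Levels below are log2 of the intensity after background correction and quantile normalization, listed for replicates 1 to 4. The lowest level of any detected probe was 6.35 to 6.88, depending on the array. Differences are between group means ± SE of 4 arrays each, from 1 limma fit over all 24 arrays with Benjamini-Hochberg adjustment over the 12149 features, and a gene passes the threshold when its adjusted p is under 0.05. Where all 4 arrays of a group missed a gene, the fold is a bound, counted from the lowest detected level of those arrays and written with the words at least. No fold is given where that bound is under 1. The series record calls the replicates biological without saying that they are separate cultures, so p-values measure the spread between these samples, which may be technical. In bulk RNA, fewer cells making a transcript and less transcript per cell cannot be told apart.

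**Figure D2:**
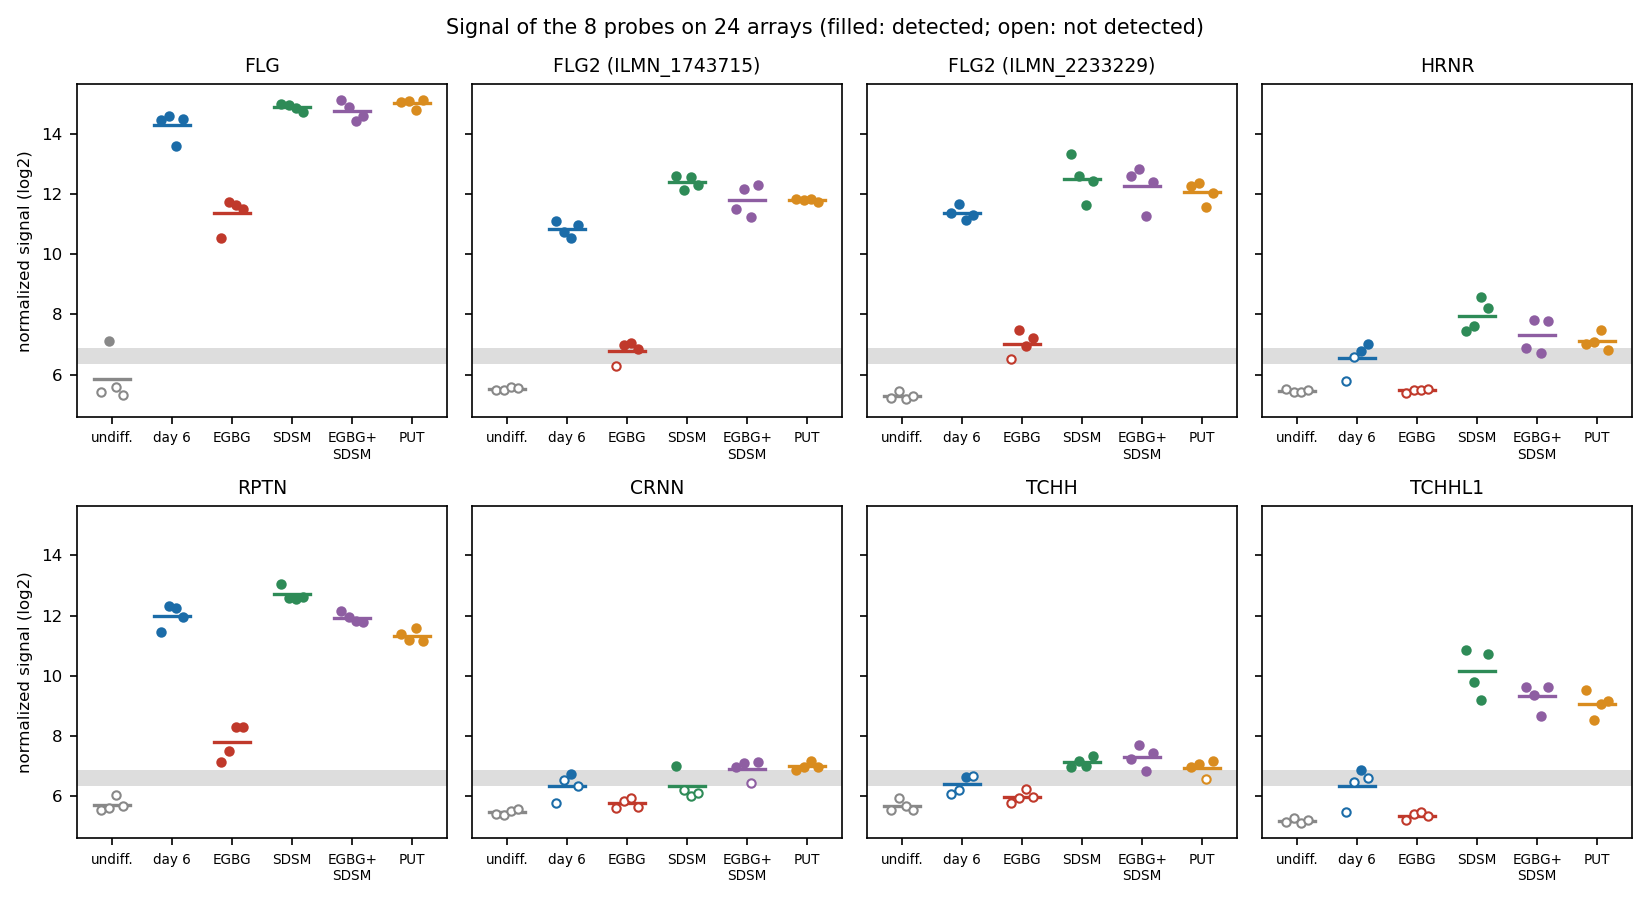
Normalized signal (log2) of the 8 probes on each of the 24 arrays by group, with a horizontal line at each group mean and a grey band from 6.35 to 6.88 for the lowest detected level of the arrays. Filled points are detected and open points are not. FLG, FLG2 and RPTN are high in 4 of the 5 differentiated groups and lower with EGBG, and TCHHL1 lies between 8.52 and 10.85 only with SDSM, EGBG plus SDSM or PUT.

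Differentiation was examined first. FLG, FLG2 and RPTN were switched from at or below detection to high signal, while the other 4 genes reached no more than the edge of detection at day 6. FLG had levels of 5.44, 7.13, 5.57 and 5.32 in undifferentiated cells and 14.48, 14.59, 13.59 and 14.50 at day 6. Undifferentiated replicate 2 was the single array of its group on which FLG was detected, day 6 replicate 3 was below the others of its group, and the groups were far apart. The difference of 8.42 ± 0.30 (adjusted p = 1.52e-17, higher in 4 of 4 arrays) ranked first among the rises of the 12149 features. Since 3 of the 4 undifferentiated arrays were undetected, its size and rank rest partly on background, and under 10 other settings the difference ran from 7.72 to 9.34.

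FLG2 had levels of 5.24, 5.46, 5.20 and 5.29 in undifferentiated cells and 11.38, 11.68, 11.13 and 11.31 at day 6. It was undetected before differentiation and at least 30.0-fold higher at day 6 (adjusted p = 9e-15). The further FLG2 probe, ILMN_1743715, gave at least 20.6-fold (adjusted p = 3.31e-17). RPTN had levels of 5.55, 5.60, 6.05 and 5.66 in undifferentiated cells and 11.45, 12.31, 12.26 and 11.97 at day 6. It too was undetected at first and was at least 46.0-fold higher at day 6 (adjusted p = 1.02e-17).

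HRNR was undetected in undifferentiated cells at 5.43 to 5.52, and had levels of 5.80, 6.59, 6.79 and 7.02 at day 6, of which 2 of 4 were detected. Its rise was at least 1.06-fold (adjusted p = 0.000949). CRNN, TCHH and TCHHL1 passed the threshold as well, with adjusted p of 0.00056, 0.00122 and 0.00213, but each was detected on 1 of 4 day 6 arrays and has no fold. Day 6 replicate 1 had the lowest level of the group in HRNR, CRNN, TCHH, TCHHL1 and RPTN. In all, 7 of 7 genes passed the threshold upward, against 23.8% of the 12149 features. The arrays of the groups did not overlap in 7 of 7 genes, against 19.9% of features. The median of the fitted differences was 1.17, or 0.08 with undetected genes at their bounds, beside -0.10 over all features.

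Genes that work with filaggrin moved in the same comparison. All 11 tested genes of 12 listed for keratohyalin and filament partners were higher, with KRT1, the suprabasal keratin, at 8.27 ± 0.33 (detected on 1 of 4 undifferentiated arrays), LORICRIN, the main cornified envelope protein, at 8.02 ± 0.36 (2 of 4), CNFN at 7.50 ± 0.23 and SBSN at 7.09 ± 0.24. Of 14 tested genes of filaggrin processing and degradation (20 listed), 11 were higher and 1 lower. ASPRV1, the aspartic protease that cuts profilaggrin, was at least 55.0-fold higher, and HAL, which turns the histidine freed from filaggrin into urocanic acid, at least 6.76-fold. Among 4 crosslinking transglutaminases 3 were higher, with TGM5 at least 27.4-fold. Of 24 tested transcription factors linked to filaggrin expression (29 listed), 16 were higher and 1 lower, including HOPX at 6.99 ± 0.21 and RORA at least 16.6-fold. The 13 tested of 16 S100 genes of the same chromosome were divided, 5 higher and 5 lower, with S100A7 at 6.93 ± 0.35 and S100A3 at -2.80 ± 0.22 (3 of 4 day 6 arrays). All these counts stand beside 23.8% of features higher, and 7001 of 12149 called in either direction. The share of S100 genes lower is near that of all features.

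EGBG was then compared with day 6 to ask what blocking AMD1 during differentiation did to the family. FLG, FLG2 and RPTN fell without returning to the undifferentiated level, and HRNR, CRNN and TCHHL1 were no longer detected on any array. With EGBG, FLG had levels of 10.56, 11.74, 11.63 and 11.51, all below the 4 day 6 arrays. The fall was 7.62-fold (-2.93 ± 0.30, adjusted p = 3.9e-08), and in intensity the group mean went from 20871 ± 4854 to 2962 ± 972 (SD, n = 4).

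FLG2 had levels of 6.52, 7.47, 6.94 and 7.20 with EGBG, of which replicate 1 was undetected. It was 20.3-fold lower than at day 6 (-4.34 ± 0.30, adjusted p = 3.22e-11), and its further probe gave -4.03 ± 0.20 (adjusted p = 8.72e-14, detected on 3 of 4 EGBG arrays). RPTN had levels of 7.13, 7.49, 8.29 and 8.28, all detected, and was 18.35-fold lower (-4.20 ± 0.22, adjusted p = 3.14e-13). In both genes no EGBG array reached any day 6 array. By size among all falls, FLG2 was the 11th, RPTN the 19th and FLG the 84th.

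HRNR lay at 5.38 to 5.53 with EGBG (adjusted p = 0.00192), CRNN at 5.59 to 5.94 (adjusted p = 0.0227) and TCHHL1 at 5.20 to 5.49 (adjusted p = 0.0117). Their day 6 levels were so near the detection limit that no fold can be given. The CRNN call was lost, with adjusted p up to 0.0849, on leaving out EGBG replicate 1 or 4, or day 6 replicate 2 or 3, and also with no filter on dim probes (0.0582) or only the groups compared in the fit (0.0519). The TCHHL1 call was lost with an offset of 50 (adjusted p = 0.062). TCHH, at 5.78 to 6.24 and undetected, did not pass (-0.41 ± 0.18, adjusted p = 0.0739), though it did without day 6 replicate 1 (adjusted p = 0.0328) or EGBG replicate 3 (0.0475). In all, 6 of 7 genes were lower and 0 higher, against 17.7% of features lower and 21.3% higher, and 4 of 7 did not overlap, against 14.4% of features lower with no overlap. The median difference was -1.08, or 0 with undetected genes at their bounds, beside 0.07 over all features.

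Set against undifferentiated cells, the EGBG group was still higher in 3 of 7 genes, with 23.1% of features higher. FLG was 5.50 ± 0.30 above (adjusted p = 1.49e-13, detected on 1 of 4 undifferentiated arrays), from 4.81 to 6.41 under 10 other settings. RPTN was at least 2.51-fold higher (adjusted p = 1.92e-08) and FLG2 at least 1.475-fold (adjusted p = 2.87e-05). HRNR, CRNN, TCHH and TCHHL1 were undetected on all arrays of this comparison, so no order between the groups can be read from them.

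The related genes fell in part. Of 11 keratohyalin and filament partners 7 were lower and 0 higher with EGBG, including KPRP (-3.83 ± 0.21), CDSN, the desmosomal glycoprotein of the cornified layer (-3.49 ± 0.22, 2 of 4 EGBG arrays), LORICRIN (-3.25 ± 0.36) and IVL (-3.16 ± 0.16, 3 of 4 EGBG arrays). Of 14 processing genes 7 were lower and 1 higher, with HAL at least 6.10-fold lower and PCSK6, a proprotein convertase, at -3.17 ± 0.23. ASPRV1 (-2.87 ± 0.20) and BLMH (-2.18 ± 0.19), which breaks citrullinated filaggrin into amino acids, were also lower. TGM5 (-3.76 ± 0.17), TGM1 (-1.75 ± 0.22) and TGM3 (-1.05 ± 0.21) made 3 of 4 transglutaminases lower. Among 24 transcription factors 14 were lower and 0 higher, with PRDM1 at -2.49 ± 0.23, RORA at -1.89 ± 0.21, KLF4 at -1.75 ± 0.20 and OVOL1 at least 2.53-fold lower. Of the 13 S100 genes 7 were lower and 0 higher, led by S100A7 at -5.70 ± 0.35, and AMD1 RNA itself was higher (1.26 ± 0.32, adjusted p = 0.0027). The list counts stand beside 17.7% of features lower and 21.3% higher.

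**Figure D3:**
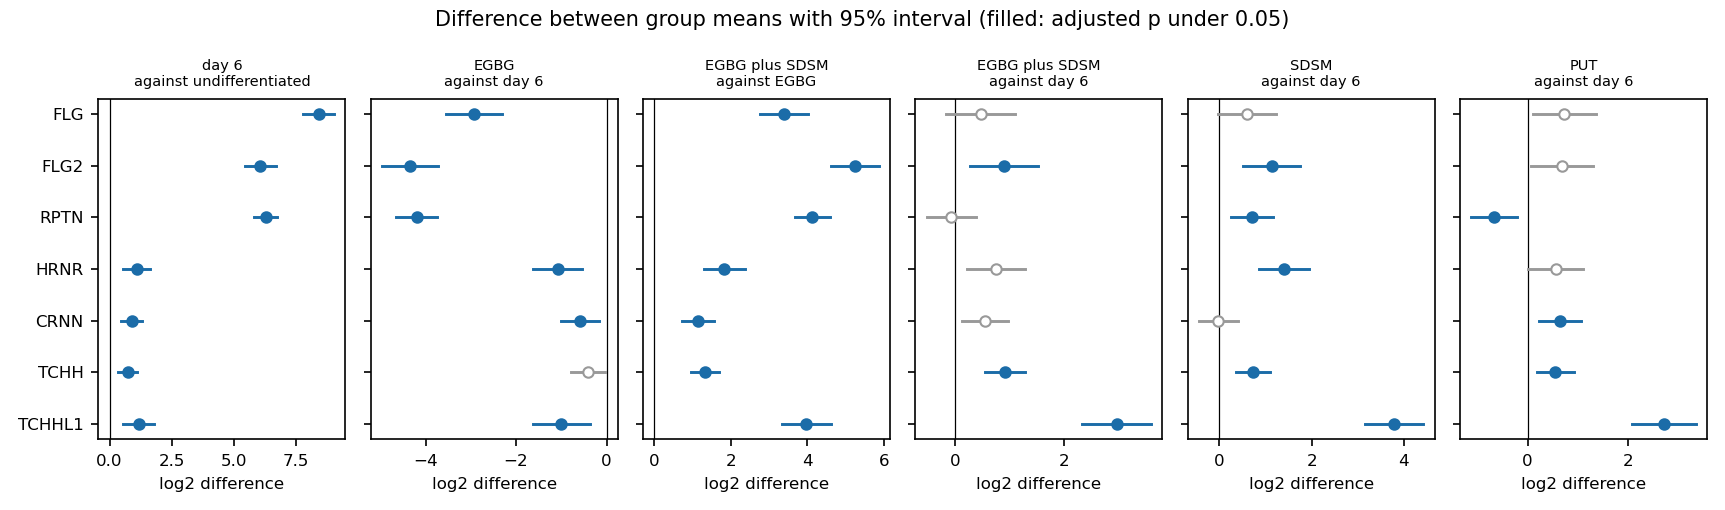
Fitted log2 difference between group means for the 7 genes in 6 comparisons, with bars for the 95% interval and filled points for adjusted p under 0.05 (4 arrays a group, horizontal scale different in each panel). FLG, FLG2 and RPTN move most with differentiation and EGBG, and TCHHL1 moves most with SDSM or PUT. Values of genes undetected in 1 of the groups depend on background and are no measure of size.

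Adding SDSM together with EGBG tested whether supplied polyamines brought these transcripts back. All 7 genes were higher with EGBG plus SDSM than with EGBG alone. That comparison also holds what SDSM did without EGBG, as for TCHHL1 below, so a rise is not by itself a return. Against day 6, 0 of 7 passed the threshold as lower. In that comparison 1994 of the 12149 features passed, 1059 of them as higher, so a count of 0 lower among 7 genes says little. FLG had levels of 15.11, 14.88, 14.43 and 14.59 with both compounds, above every EGBG array by a wide margin (3.39 ± 0.30, adjusted p = 1.54e-09). FLG2 had levels of 12.60, 12.85, 11.27 and 12.39 (5.24 ± 0.30, adjusted p = 4.84e-13). Its replicate 3 was the lowest of the group and still well above the EGBG arrays.

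RPTN had levels of 12.15, 11.95, 11.80 and 11.80 (4.13 ± 0.22, adjusted p = 1.54e-13). TCHHL1, undetected with EGBG, had levels of 9.64, 9.36, 8.67 and 9.64 and was at least 6.54-fold higher (adjusted p = 1.09e-10). HRNR at 6.71 to 7.83 was at least 1.61-fold higher (adjusted p = 2.47e-06), TCHH at 6.82 to 7.71 at least 1.61-fold (1.21e-06), and CRNN at 6.43 to 7.12, detected on 3 of 4 arrays, at least 1.22-fold (4.72e-05). Against 22.2% of all features, 7 of 7 genes passed upward, and 7 of 7 did not overlap, against 20% of features. HRNR, CRNN, TCHH and TCHHL1 would not have met the detection filter without the groups given SDSM or PUT, so these counts are descriptions. The median difference was 3.39, or 2.71 with undetected genes at their bounds, beside -0.07 over all features.

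The group with both compounds was next set against day 6 itself, where 3 of 7 genes were higher, against 8.72% of features. TCHH and TCHHL1 among them would not have met the detection filter without the groups given SDSM or PUT, so the counts here are descriptions. FLG differed by 0.46 ± 0.30 (95% interval -0.16 to 1.09, adjusted p = 0.318) and RPTN by -0.07 ± 0.22 (-0.53 to 0.39, adjusted p = 0.864), and the arrays of the groups overlapped in both. TCHHL1 was 2.97 ± 0.31 above day 6 (adjusted p = 1.05e-06, detected on 1 of 4 day 6 arrays), the 7th largest rise, and TCHH 0.91 ± 0.18 above (adjusted p = 0.00112, 1 of 4). These were the 2 genes with no overlap, against 8.05% of features. FLG2 was 0.90 ± 0.30 above (adjusted p = 0.0418), a call lost without any of 6 arrays (adjusted p up to 0.142), namely day 6 replicates 1, 3 and 4 and EGBG plus SDSM replicates 1, 2 and 4. Its further probe gave 0.97 ± 0.20 (adjusted p = 0.00157), with no overlap. HRNR (0.75 ± 0.26, 2 of 4 day 6 arrays) and CRNN (0.55 ± 0.20, 1 of 4) had adjusted p of 0.05, just above the threshold, and 0.0681. Both passed without EGBG plus SDSM replicate 3, which brought the count to 5 genes, or without day 6 replicate 3. The median difference was 0.75, beside 0.00 over all features.

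Whether EGBG changed the family when SDSM was present was asked by comparing EGBG plus SDSM with SDSM alone. In limma 0 of 7 genes passed, against 0.988% of features. An unadjusted p under 0.05 was found in 4 of 7, a looser threshold at which all features were not counted, so 0.988% is no comparison for it. RPTN came nearest (-0.78 ± 0.22, 95% interval -1.24 to -0.32, adjusted p = 0.0846), with its 4 EGBG plus SDSM arrays below the 4 SDSM arrays, as in 2.91% of features, and it passed when arrays were weighted by quality (-0.82, adjusted p = 0.0281). For FLG the interval was -0.75 to 0.50 and for FLG2 -0.85 to 0.39. The further FLG2 probe gave -0.60 ± 0.20 (adjusted p = 0.142). TCHHL1 differed by -0.82 ± 0.31 (adjusted p = 0.202), HRNR by -0.65 ± 0.26 (0.232), CRNN by 0.57 ± 0.20 (0.18) and TCHH by 0.18 ± 0.18 (0.743). At the median the genes were at -0.23, beside 0.01 over all features.

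The interaction term, the EGBG effect with SDSM minus the EGBG effect without it, passed the threshold upward in 4 of 7 genes, against 9.72% of features. It was 4.11 ± 0.42 for FLG2 (adjusted p = 1.29e-07), 3.42 ± 0.31 for RPTN (2.1e-08), 2.80 ± 0.43 for FLG (3.99e-05) and 1.17 ± 0.29 for CRNN (0.00515). TCHH (0.59 ± 0.25, adjusted p = 0.114), HRNR (0.42 ± 0.37, 0.5) and TCHHL1 (0.18 ± 0.43, 0.836) did not pass. The last 3 and CRNN were undetected with EGBG alone, so the size of the EGBG effect without SDSM is limited by background in them. CRNN was also detected on only 1 of 4 day 6 and 1 of 4 SDSM arrays, so its term rests largely on background. The median was 1.17, beside -0.05 over all features.

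With SDSM added to EGBG, 7 keratohyalin and filament partners were higher and 1 lower than with EGBG alone, led by KPRP at 5.60 ± 0.21 and CDSN at 4.88 ± 0.22 (2 of 4 EGBG arrays). Of the processing genes 11 were higher and 1 lower, with ASPRV1 at 4.20 ± 0.20 and HAL at least 19.7-fold. TGM5 (4.07 ± 0.17), TGM1 (2.10 ± 0.22) and TGM3 (1.01 ± 0.21) were the 3 transglutaminases that rose. Of the transcription factors 16 were higher and 0 lower, with PRDM1 at 3.23 ± 0.23 and OVOL1 at least 2.41-fold. S100A7 rose by 6.60 ± 0.35, among 7 S100 genes higher and 2 lower. Set against day 6 rather than EGBG, 9 of 14 processing genes were higher, HAL by 1.69 ± 0.19 and ASPRV1 by 1.33 ± 0.20. Of all features, 8.72% were higher against day 6. Against EGBG 22.2% were higher, and 6218 of 12149 were called in either direction.

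SDSM and PUT were also given without EGBG, and both comparisons use the same 4 day 6 arrays. TCHHL1 stood out: it was at the edge of detection at day 6 and clearly detected in every array that received SDSM or PUT. Its levels were 5.47, 6.48, 6.87 and 6.59 at day 6, of which only replicate 3 was detected, and 5.20, 5.39, 5.49 and 5.34 with EGBG. They were 10.85, 9.79, 9.20 and 10.72 with SDSM and 9.53, 8.52, 9.07 and 9.15 with PUT. The lowest of these arrays was above the highest day 6 array. In intensity the SDSM arrays ran from 663 to 1794, the EGBG plus SDSM arrays from 361 to 724, the PUT arrays from 314 to 710, and the day 6 arrays from -3.96 to 109.

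The rise of TCHHL1 was 3.79 ± 0.31 with SDSM (95% interval 3.16 to 4.42, adjusted p = 2.7e-08), the largest of all 12149 features in that comparison. With PUT it was 2.72 ± 0.31 (2.08 to 3.35, adjusted p = 2.89e-06), the 2nd largest rise. TCHHL1 met the detection filter only through the SDSM, EGBG plus SDSM and PUT groups, where it is high. These ranks, and its rank for EGBG plus SDSM against day 6, are therefore descriptions and not tests. Since 3 of 4 day 6 arrays were undetected, both sizes rest partly on background, and under 10 other settings they ran from 3.31 to 4.16 with SDSM and from 2.22 to 3.09 with PUT. Across differentiated groups TCHHL1 was lowest with EGBG and at day 6, and highest with SDSM, EGBG plus SDSM and PUT. HRNR, CRNN and TCHH would also not have met the detection filter without the SDSM, EGBG plus SDSM and PUT groups. Their calls in those groups against day 6 or EGBG, and the counts that hold them, are descriptions as well.

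**Figure D4:**
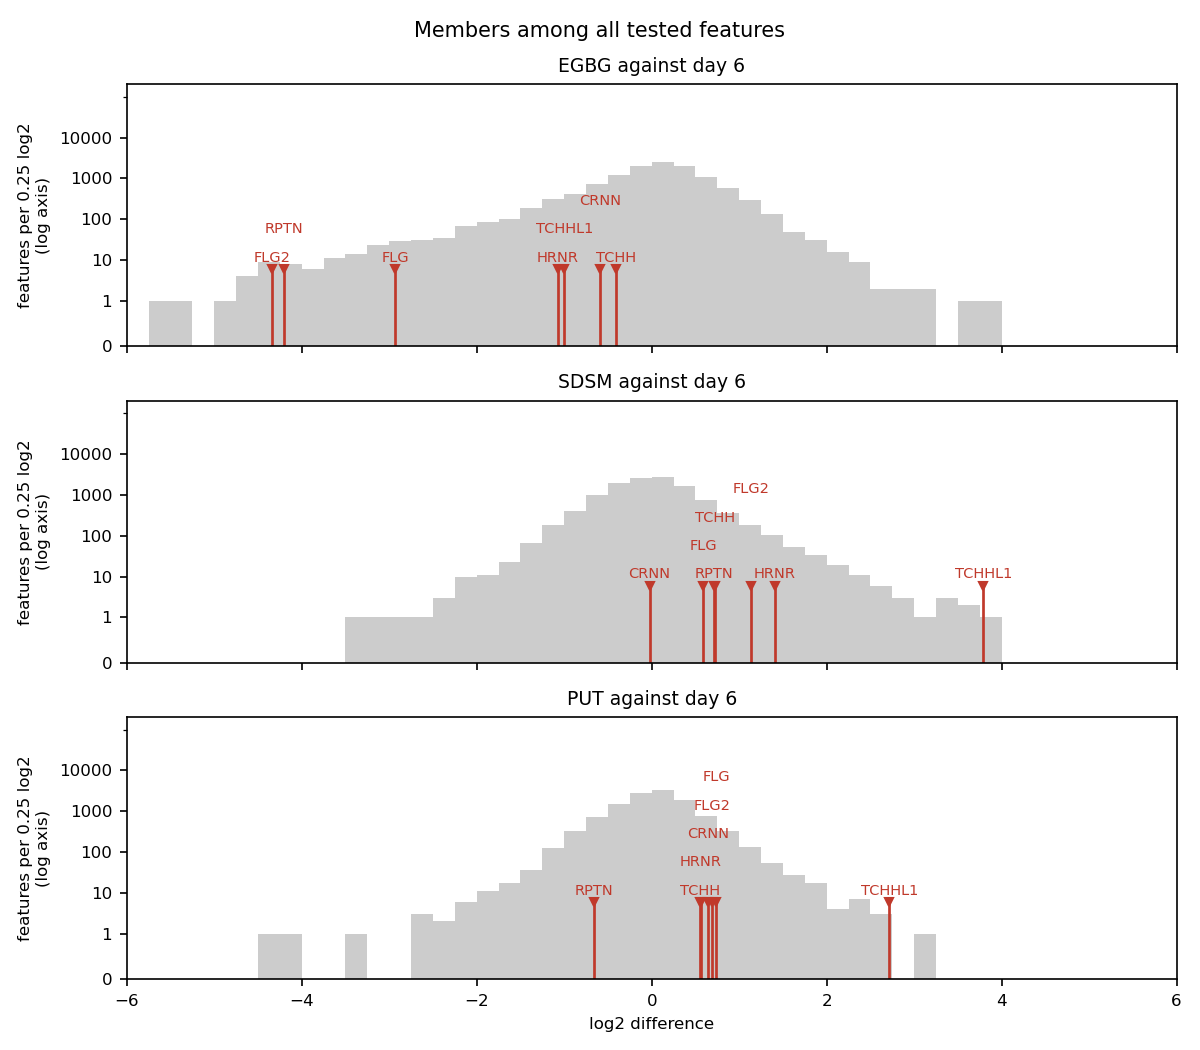
Counts of all 12149 features by log2 difference (grey, bins of 0.25, log vertical axis) for 3 comparisons, with each of the 7 genes marked by a red line at its fitted difference. FLG2 and RPTN lie in the far lower tail with EGBG, and TCHHL1 lies at the far upper end with SDSM (3.79) and with PUT (2.72).

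With SDSM, 5 of 7 genes were higher than at day 6 and 0 lower, against 12.3% of features higher. No overlap was found in 5 of 7, against 10.6% of features higher with no overlap. HRNR, TCHH and TCHHL1 would not have met the detection filter without the groups given SDSM or PUT, so these counts are descriptions. FLG2 had levels of 13.34, 12.59, 11.65 and 12.45 (1.13 ± 0.30, adjusted p = 0.00689), of which replicate 3 lay within the day 6 range, and its further probe gave 1.56 ± 0.20 (adjusted p = 4.7e-06) with no overlap. RPTN had levels of 13.06, 12.59, 12.56 and 12.62 (0.71 ± 0.22, adjusted p = 0.0203), a call lost without day 6 replicate 1 or SDSM replicate 1 (adjusted p up to 0.095), and with no background correction (0.0621), median scaling (0.17) or no filter (0.0568). HRNR at 7.44, 7.61, 8.57 and 8.21 was detected on all arrays and above all day 6 arrays (1.41 ± 0.26, adjusted p = 0.000301, 2 of 4 day 6 arrays). TCHH was 0.73 ± 0.18 higher (adjusted p = 0.00398, 1 of 4 day 6 arrays), a call lost with median scaling (0.33, adjusted p = 0.166). FLG, at 15.00, 14.96, 14.85 and 14.72, differed by 0.59 ± 0.30 (-0.04 to 1.22, adjusted p = 0.158) although its arrays lay above all day 6 arrays. CRNN differed by -0.02 ± 0.20 (adjusted p = 0.945, 1 of 4 arrays in both groups). The median difference was 0.73, beside -0.02 over all features.

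With PUT, 3 of 7 genes were higher and 1 lower than at day 6, against 9.58% of features higher and 7% lower. TCHHL1 apart, these calls were small and close to the threshold. The 3 higher genes, TCHHL1, CRNN and TCHH, would not have met the detection filter without the groups given SDSM or PUT, so the counts are descriptions. RPTN was the gene that went down, at 11.40, 11.19, 11.59 and 11.15 (-0.66 ± 0.22, adjusted p = 0.042), with replicate 3 above the lowest day 6 array. CRNN at 6.86, 6.98, 7.17 and 6.98 was detected on all PUT arrays and on 1 of 4 at day 6 (0.64 ± 0.20, adjusted p = 0.0316). TCHH was 0.55 ± 0.18 higher (adjusted p = 0.0364, detected on 3 of 4 PUT and 1 of 4 day 6 arrays). Each of these 3 calls was lost when any of several arrays was left out, with adjusted p up to 0.113 for RPTN, 0.15 for CRNN and 0.137 for TCHH. The count of 4 genes fell to 1 without PUT replicate 1, 2 or 4 and to 2 without day 6 replicate 1, 2 or 4. TCHHL1 passed in every one of these fits. No overlap was found in 3 of 7 genes, CRNN, TCHHL1 and FLG, against 11.3% of features higher with no overlap.

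FLG reached 15.07, 15.09, 14.81 and 15.14 with PUT (0.74 ± 0.30, 0.11 to 1.36, adjusted p = 0.0993). FLG2 reached 12.28, 12.38, 11.58 and 12.02 (0.69 ± 0.30, adjusted p = 0.118), where its further probe passed with no overlap (0.97 ± 0.20, adjusted p = 0.00165). HRNR, detected on all PUT arrays at 6.83 to 7.50, did not pass (0.56 ± 0.26, adjusted p = 0.149). At the median the genes were at 0.64, beside 0.03 over all features.

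SDSM and PUT were compared with each other, 1 pair of treatments at the dose of 1 mM on the labels. Putrescine is the diamine from which spermidine and spermine are made by adding aminopropyl groups. RPTN separated them most clearly: it was 1.37 ± 0.22 higher with SDSM than with PUT (95% interval 0.91 to 1.83, adjusted p = 0.000163), with no overlap. By 1 probe per gene it was the only one of the 7 without overlap, a share near the 9.75% of features higher with no overlap. The further FLG2 probe did not overlap either. TCHHL1 was 1.07 ± 0.31 higher with SDSM (adjusted p = 0.0173), HRNR 0.85 ± 0.26 higher (0.0267) and CRNN lower (-0.67 ± 0.20, adjusted p = 0.0251, detected on 1 of 4 SDSM arrays). In all, 3 of 7 genes were higher with SDSM, against 7.1% of features, and 1 of 7 lower, against 9.93%.

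The TCHHL1 call was lost without SDSM replicate 1 or 4 or PUT replicate 2 (adjusted p up to 0.0748), the HRNR call without SDSM replicate 3 or 4 or PUT replicate 1, 2 or 4 (up to 0.114), and the CRNN call without SDSM replicate 2, 3 or 4 or PUT replicate 3 (up to 0.0905). Without SDSM replicate 4 the count was 1 gene, and it was 2 without SDSM replicate 3 or PUT replicate 2. FLG did not pass between the treatments, with a difference of -0.15 and an interval of -0.77 to 0.48. For FLG2 the interval was -0.18 to 1.06 (adjusted p = 0.356), although its further probe was 0.59 ± 0.20 higher with SDSM (adjusted p = 0.0408). For TCHH it was -0.20 to 0.55 (adjusted p = 0.574). At the median the genes differed by 0.44, beside -0.04 over all features.

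Among the related genes, 10 of 14 processing genes were higher with SDSM than at day 6 and 0 lower, including HAL (2.20 ± 0.19), BLMH (1.77 ± 0.19), ASPRV1 (1.46 ± 0.20) and CASP14 (1.11 ± 0.15), the caspase of late filaggrin breakdown. With PUT 6 were higher and 2 lower, with HAL at 1.21 ± 0.19, BLMH at 1.14 ± 0.19 and ST14, the protease matriptase, at -1.03 ± 0.32. Of 11 keratohyalin and filament partners 3 were higher with SDSM, namely KPRP (2.01 ± 0.21), CDSN (1.95 ± 0.22) and IVL (1.04 ± 0.16), while with PUT 2 were higher and 2 lower. TGM5, 0.58 ± 0.17 higher, was the 1 transglutaminase past the threshold with SDSM, and 0 of 4 passed with PUT. Of 24 transcription factors 8 were higher with SDSM, PRDM1 by 1.28 ± 0.23, and 2 with PUT. S100A7A, undetected at day 6 and with PUT, was at least 5.88-fold higher with SDSM than at day 6, among 2 S100 genes higher and 3 lower with SDSM and 4 higher and 2 lower with PUT. All these counts stand beside 12.3% of features higher with SDSM, and 9.58% higher and 7% lower with PUT, and the shares of transcription factors higher with PUT and of S100 genes higher with SDSM are near them. With PUT, TGM1 was at -0.51 ± 0.22 (adjusted p = 0.115) and TGM3 at -0.17 ± 0.21 (0.63).

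Markers of other epithelia were read beside TCHH and CRNN, which are best known outside the epidermis. Of 12 genes of the hair inner root sheath, GATA3 was detected on all arrays of every group and TGM3 in the 5 differentiated groups, and both are also made in epidermal keratinocytes. KRT27 was detected on all 4 arrays of the day 6 group alone, and the remaining 9, among them KRT25, KRT71 and KRT72, were detected on all 4 arrays of no group. Of 6 genes of non-keratinized mucosa, SPRR3 was detected throughout, KRT13 and MAL with EGBG plus SDSM, and KRT4 and MAL with PUT. The summed intensity of the 6 was 3233 to 4060 with PUT, where CRNN was detected on 4 of 4 arrays, and 1496 to 3316 at day 6, 1558 to 2915 with SDSM and 1248 to 2974 with EGBG plus SDSM. All groups were grown from the same keratinocyte cell line, so the mucosal markers describe its transcripts and not a share of mucosal cells. The relation of these markers to the CRNN signal was not tested. Of the melanocyte, fibroblast and immune markers, PMEL, COL1A1 and up to 3 of CD14, CD207 and HLA-DRA were detected.

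Ratios between the genes on the same array were also compared. Between EGBG and day 6 the log2 ratio of FLG2 to FLG on the same array went from -2.91 ± 0.33 to -4.33 ± 0.27 (SD, n = 4), and that of RPTN to FLG from -2.29 ± 0.71 to -3.56 ± 0.47, both without overlap, while RPTN to FLG2 moved by 0.15. RPTN to FLG was -3.69 ± 0.35 with PUT, below all day 6 arrays and all SDSM arrays (-2.17 ± 0.19). Such ratios describe change on these arrays and not relative abundance, since probes differ in response. Those with a gene near the detection limit, as FLG2 with EGBG (detected on 3 of 4 arrays), also depend on background. In 36 two-sided exact permutation tests over 6 gene pairs and 6 comparisons, no change reached 0.05 after adjustment over the 36. The smallest p that 4 against 4 arrays can give is 0.0286, and the lowest adjusted p was 0.0515. Every ratio change without overlap stood at these values, so the lack of calls does not show that ratios were unchanged.

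Over the 24 arrays the FLG2 probes correlated at r = 0.989, FLG2 and RPTN at 0.9735, TCHH and TCHHL1 at 0.9121, and FLG and TCHHL1 at 0.7367. These describe arrays that share groups and treatments. By the same measure over 24 arrays, the named features most like each gene were LORICRIN (0.9941), LY6G6C and ADAP2 for FLG, ELOVL7 (0.9903), ARG1 and AQP9 for FLG2, and TGM5 (0.9944), CD36 and NCCRP1 for RPTN. They were DIO2 (0.9789), PSG7 and ABCA4 for TCHHL1, RARRES1 (0.9473), TMEM45B and DIO2 for TCHH, VPS37B (0.9373), ACP7 and CNST for HRNR, and BEX2 (0.8894), VPS29 and RRAGA for CRNN. Over the 20 differentiated arrays, where the step from undifferentiated cells plays no part, they were F3 (0.9876), PAG1 and RAB11FIP1 for FLG, GCNT1 (0.9879), NFE2L3 and F3 for FLG2, and TGM5 (0.987), LIPN and CD36 for RPTN. They were PRKAG2 (0.9732), DIO2 and PSG7 for TCHHL1, FLVCR2 (0.9277), RARRES1 and FOLR3 for TCHH, VPS37B (0.9277), SH2D3A and FUT3 for HRNR, and ACSL4 (0.8668), TBCA and CENPM for CRNN.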

How the data were processed

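Total RNA of 24 N/TERT1 samples, 4 per group, was hybridized to Illumina bead arrays, and groups and replicate numbers were taken from the sample labels. GenomeStudio is named in the submitters' processing notes, with its version not given in the sources used here. In the deposited series matrix each value is a linear intensity of 1 probe on 1 array, background-subtracted but, from the unequal distributions, not normalized between arrays. A detection p-value per probe and array, per the file headers, comes from a second deposited table. Its p-value columns carry no sample name and were taken as the column to the right of each named signal, and each of the 24 matched its own array's series matrix ranks better than any other array's. In that table's signal columns the 8 family probes stand at 40, its lowest value, on every array, so they were not used.

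The log2 values are not the authors': they were computed in R 4.3.3 from the deposited intensity, using the neqc function of limma 3.58.1 (background fitted from the detection p-values, offset 16, quantile normalization). Probes detected on at least 4 arrays were kept (14304), and the brightest stood for each gene, giving 12149 features. The further FLG2 probe was fitted with all 14304. Contrasts came from lmFit and eBayes over all 24 arrays with no covariate, two-sided, with Benjamini-Hochberg adjustment. Bounds set the brighter group's mean against the mean, per array, of the lowest detected level or the gene's own. On data simulated for EGBG against day 6 with all 12149 features, the fit recovered 38% of 50 features changed by 0.5 on the log2 scale and 80% of those changed by 1. It recovered 100% of those changed by 2 or 4 and made 5 false calls.

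In the annotation, 30102 probes had 1 symbol, 8 had several and 17194 had none, and RefSeq updated 0. Named were the 7 genes in every comparison, the 3 named features most like each over 24 and over 20 arrays, from each gene list up to 4 called genes, those that changed most (the brightest 2 where none passed), of which the text gives a selection, and AMD1. The genes, the 5 gene lists and the tests were chosen with earlier results of these data known. Alternatives were the background correction, offset, scaling between arrays, dim-probe filter, probe choice, a replicate block, array weights, the arrays in the fit, and each of the 24 arrays left out. The number of arrays limits precision. No slide or scan run is named in the labels. Figures were drawn with matplotlib 3.10.9 in Python 3.11.15.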

Additional observations from a re-analysis of the deposited data

Results flagged for a closer look

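In 48 sets of 4 arrays, 1 for each of the 8 probes in each of the 6 groups, 3 held an array far from the others by Dixon's test, a rate near the 1 in 20 that chance gives. FLG on undifferentiated replicate 2 had a level of 7.13, beside 5.32 to 5.57 on the others, and was the 1 detected array of that group. FLG on day 6 replicate 3 had 13.59, beside 14.48 to 14.59. RPTN on SDSM replicate 1 had 13.06, beside 12.56 to 12.62.

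The EGBG effect differed with and without SDSM in 4 genes by the interaction term. The difference was 2.80 for FLG, 4.11 for FLG2, 3.42 for RPTN and 1.17 for CRNN on the log2 scale. CRNN was detected on 1 of 4 day 6, 0 of 4 EGBG, 1 of 4 SDSM and 3 of 4 EGBG plus SDSM arrays, so its difference rests largely on background. In the presence of SDSM, EGBG minus no EGBG was -0.13 for FLG, -0.23 for FLG2, -0.78 for RPTN and 0.57 for CRNN, of which 0 passed the threshold.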

How the results depend on the processing

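Among 1316 values of the 7 genes under the alternatives, 1203 kept direction and side of the threshold, 73 lost and 24 gained a call, 16 uncalled values turned sign and 0 called values did. The number of genes called was moved over 1.5 times in 6 comparisons, and the cause was not tested. With PUT against day 6 (4 genes) it was 1 with no background correction, with cyclic loess or with no filter on dim probes, 2 with median scaling, and 1 to 3 when an array was left out. With SDSM against PUT (4) it was 1 with no background correction or no filter, and 1 to 3 when an array was left out. With SDSM against day 6 (5) it was 3 with median scaling. With EGBG against undifferentiated (3) it was 5 with no background correction and with cyclic loess, where CRNN and TCHH were added. With EGBG plus SDSM against SDSM (0) it was 1 with array weights, and against day 6 (3) it was 2 to 5 when an array was left out. The other deposited table gave no value for these genes.

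Not every pair of same-numbered arrays deviated together from the group means (43 of 60 pairs correlated over 0.1, from -0.26 to 0.57), so the numbers were not taken as pairs, although the median was 0.23 against -0.06 for other numbers and 18 of 24 arrays were nearest to their own number. With a replicate block the genes called were 7, 6, 7, 4, 0, 5, 5, 4, 3 and 4 for day 6 against undifferentiated, EGBG against day 6, EGBG plus SDSM against EGBG, against day 6 and against SDSM, SDSM and PUT against day 6, SDSM against PUT, EGBG against undifferentiated and the interaction. The block added HRNR for EGBG plus SDSM against day 6 (adjusted p = 0.0292) and FLG2 for PUT (0.0359).

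Over all 12149 features, calls for EGBG plus SDSM went from 1994 to 851 against day 6 and from 120 to 3 against SDSM with only the groups compared in the fit, and from 120 to 306 with the block, 263 with array weights and 78 with cyclic loess. With median scaling they went from 3083 to 4771 for SDSM and from 2015 to 6576 for PUT against day 6, and with only the groups compared to 1944 for SDSM. For SDSM against PUT they went from 2069 to 1328 with median scaling. That scaling moved the median difference of all features to between -0.60 and 0.41. The share of calls that were higher went from 41.3% to 20.5% for day 6, 54.7% to 80.6% for EGBG, 48.7% to 10% for SDSM, 57.8% to 2.6% for PUT and 41.7% to 82.6% for SDSM against PUT. For EGBG plus SDSM it went from 43.3% to 16.6% against EGBG, 53.1% to 24% against day 6 and 56.7% to 89.4% against SDSM, and for the interaction from 52.6% to 39.1%. Cyclic loess gave 43.4% for EGBG and 52.3% for SDSM against PUT, and no background correction gave 67.4% for EGBG plus SDSM against SDSM.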
